A study of Rattus norvegicus with 6 samples.

Results

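miR-148b and miR-152 are 2 microRNA genes whose 3p arms carry the same seed, the stretch of bases 2 to 8 through which a microRNA pairs with its targets. The 4 mature arms, rno-miR-148b-3p, rno-miR-148b-5p, rno-miR-152-3p and rno-miR-152-5p (written below without the prefix for rat), were taken by name from the deposited count table, where they are 4 of 749 mature miRNAs. They were picked because miR-148b-3p differed between the libraries of this study, so its difference between the groups is given as a description, without a test. Exosomes, small vesicles that carry RNA between cells, were isolated from the culture medium of bone marrow mesenchymal stem cells (MSCs) of Sprague-Dawley rats. The MSCs of the MSCsTXL-exo group (3 libraries) had been pretreated with 400 μg/mL Tongxinluo (TXL), a Chinese medicine compound, for 24 h, and those of the MSCs-exo group (3 libraries) had not. The comparison asks which miRNAs of the exosomes differ after the pretreatment. Whether separate cultures or animals gave the libraries of a group is not given in the sources used here, so the spread between them may be technical.

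A microRNA gene is transcribed into a hairpin, from which both arms can be cut, and usually 1 arm, the guide, is kept in the silencing complex while the other is degraded. In the miR-148/152 family, which also holds miR-148a, the guide is the 3p arm. In human and mouse cells the family is known to repress the mRNA of DNMT1, the enzyme that copies DNA methylation onto new strands, and in mouse dendritic cells that of a calmodulin-dependent kinase needed for their activation. In the RefSeq annotation of the rat assembly GRCr8, Mir148b lies within the span of Copz1 and Mir152 within that of Copz2, each on the strand of that gene. Both genes encode zeta subunits of the COPI coat, which carries vesicles from the Golgi back to the endoplasmic reticulum. The deposited table places miR-148b-3p on the forward strand of chromosome 7 from 144912098 to 144912119 and miR-148b-5p from 144912061 to 144912082. It places miR-152-3p on the forward strand of chromosome 10 from 84719371 to 84719391 and miR-152-5p from 84719333 to 84719355. The table does not name its genome build.

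The mature sequences are shown because the family is defined by its seed and its members differ in few other bases. RefSeq (GRCr8) sequences matched 3 of the 4 miRNAs by name, and miR-148a-3p is added for comparison. The seed is in capitals.
miR-148b-3p: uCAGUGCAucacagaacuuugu
miR-152-3p: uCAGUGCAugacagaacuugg
miR-148a-3p: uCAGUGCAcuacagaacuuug
miR-152-5p: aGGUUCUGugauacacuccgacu
The seed CAGUGCA was found in 3 of the 693 mature rat miRNAs of the reference table, those of the first 3 lines. Counted from the 5′ end of miR-148b-3p, miR-152-3p differed from it over 21 bases by C10G and U20G, and miR-148a-3p by U9C and C10U. The mismatches that the alignment allowed are not given in the sources used here, so reads with errors at these positions could have been counted for another member of the family. In the hairpin of Mir148b (97 bases, chromosome 7, forward strand), miR-148b-3p is in capitals to show that the guide lies towards its 3′ end.
Mir148b: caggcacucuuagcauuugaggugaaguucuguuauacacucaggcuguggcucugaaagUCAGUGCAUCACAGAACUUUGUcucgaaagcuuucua

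The libraries are named by the numbers 10, 12 and 13 that the columns of the count table carry in both groups. The sample labels do not say what these numbers mark. The library kit attaches a unique molecular identifier (UMI) before PCR, and copies of 1 molecule are counted once. The totals ran from 382665 to 1792805 UMIs in MSCsTXL-exo (median 794393) and from 453812 to 1000585 in MSCs-exo (median 690263), lowest for number 10 and highest for number 13 in both groups. Levels are given as CPM, the UMIs of a miRNA per 1e6 UMIs of the library once edgeR's trimmed-mean scaling (TMM) was applied. All of the 4 miRNAs were detected in all 6 libraries, and edgeR's filter on low counts kept 3 of them, with 389 other miRNAs, for testing. It removed miR-152-5p. The 7 listed mesenchymal miRNAs, such as miR-199a-3p and miR-143-3p, summed to 346401 to 396775 CPM in MSCsTXL-exo and 311112 to 397575 CPM in MSCs-exo, the largest sum of the cell type lists. The largest part of this sum was miR-125b-5p, with 144700 to 222749 CPM in MSCsTXL-exo and 137668 to 196909 CPM in MSCs-exo. The 6 listed epithelial miRNAs summed to at most 75.0 CPM in MSCsTXL-exo and 50.7 CPM in MSCs-exo.

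miR-148b-3p, the guide arm of Mir148b, was among the abundant miRNAs of every library. It had 1975, 6080 and 8561 UMIs in MSCsTXL-exo libraries 10, 12 and 13, against 16877, 11187 and 5840 UMIs in MSCs-exo libraries 10, 12 and 13. As levels these were 4935, 7544 and 5554 CPM in MSCsTXL-exo and 32627, 15761 and 6322 CPM in MSCs-exo. The 3 MSCsTXL-exo libraries lay close together, within 1.53-fold, whereas the MSCs-exo libraries were spread over 5.16-fold. The groups overlapped, since MSCsTXL-exo library 12 lay above MSCs-exo library 13. By count it ranked 25, 17 and 27 among all miRNAs in MSCsTXL-exo libraries 10, 12 and 13, against 11, 14 and 22 in those of MSCs-exo. Counting error was 0.770 to 2.25% of the count in any library, far under these differences.

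The mean level of miR-148b-3p was 6011 ± 1363 CPM in MSCsTXL-exo and 18237 ± 13326 CPM in MSCs-exo (SD, n = 3 each), a 3.03-fold lower level in MSCsTXL-exo. The log2 fold change was -1.60 with a standard error of 0.54 in the quasi-likelihood fit of edgeR. Within a library number, MSCsTXL-exo had the lower level in 3 of 3 numbers, by 6.61-fold for number 10, 2.09-fold for number 12 and 1.14-fold for number 13. The numbers are not known to mark pairs, and these are the values miR-148b-3p was picked for, so the shared direction is a description. The sizes ran from large to slight. With a replicate block by library number the log2 fold change was -1.31 (standard error 0.45). MSCs-exo library 10 carried much of the difference. Without it the fold was 1.87 (log2 fold change -0.90, standard error 0.41), and without MSCs-exo library 13 it was 4.14 (-2.05, standard error 0.35).

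**Figure D1:**
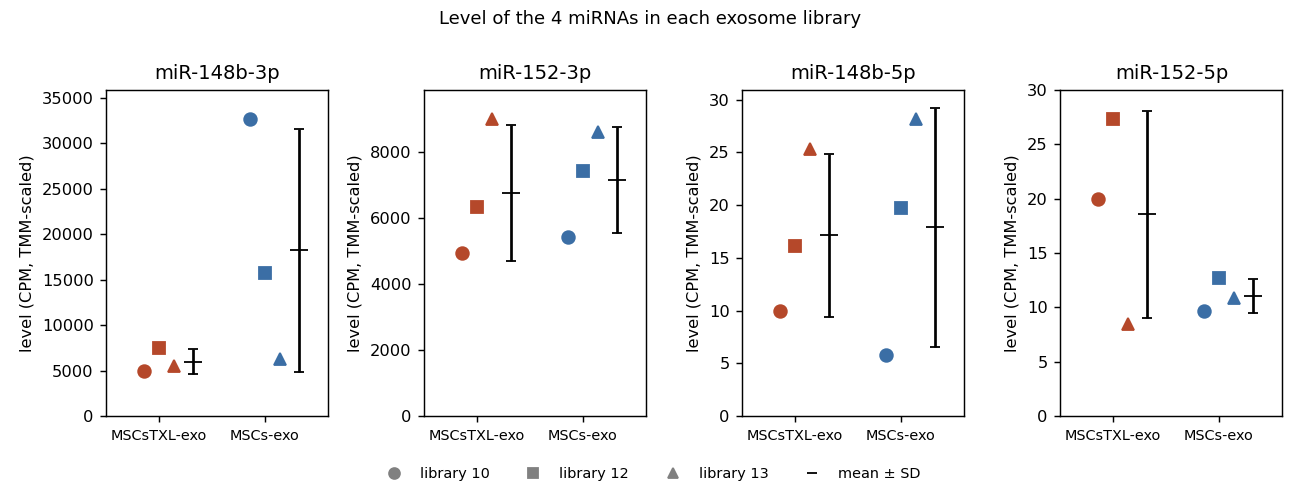
Level in CPM (linear axes from 0, TMM-scaled) of the 4 miRNAs in each library of MSCsTXL-exo and MSCs-exo. Points are libraries, shaped by library number, and the bars are the mean ± SD over 3 libraries. MSCs-exo libraries 10 and 12 of miR-148b-3p, at 32627 and 15761 CPM, stand above the other 4, while for miR-152-3p and miR-148b-5p the groups lie over each other.

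Of the 5 listed blood and immune miRNAs, all detected, 4 were tested and 0 passed the thresholds of the study's methods, more than 2-fold and a p under 0.05 before adjustment, which 3.57% of the 392 tested miRNAs passed. The log2 fold changes of the 4 were -0.76 (miR-142-3p), -0.81 (miR-223-3p), -0.40 (miR-451-5p) and 0.20 (miR-150-5p), with a median of -0.58, against 0.028 over all tested miRNAs. The 5, with miR-142-5p, summed to 212 to 329 CPM in MSCsTXL-exo and 334 to 447 CPM in MSCs-exo, without overlap between the groups, which 7.40% of single tested miRNAs showed. The largest part of the sum was miR-142-3p, with 87.5, 132 and 178 CPM in MSCsTXL-exo libraries 10, 12 and 13, against 228, 269 and 180 CPM in those of MSCs-exo, whereas miR-150-5p had 72.5, 58.3 and 59.7 CPM in MSCsTXL-exo and 52.2, 62.0 and 50.9 CPM in MSCs-exo. Their part in the result for miR-148b-3p was not tested. The 3 listed muscle miRNAs, nearly all of it miR-206-3p, summed to 127 to 501 CPM in MSCsTXL-exo and 402 to 828 CPM in MSCs-exo, and their part was not tested either.

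The spread of miR-148b-3p between libraries is the property it was picked for, so its place among other miRNAs is a description and supports nothing. Among the 65 tested miRNAs with a mean level over 1000 CPM, the highest MSCs-exo library was a median of 1.58-fold above the lowest, and 5.16-fold placed miR-148b-3p at rank 7. In MSCsTXL-exo the median of the 65 was 1.48-fold and miR-148b-3p, at 1.53-fold, had rank 30. miR-152-3p was 1.82-fold apart in MSCsTXL-exo (rank 18) and 1.58-fold in MSCs-exo (rank 33).

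**Figure D2:**
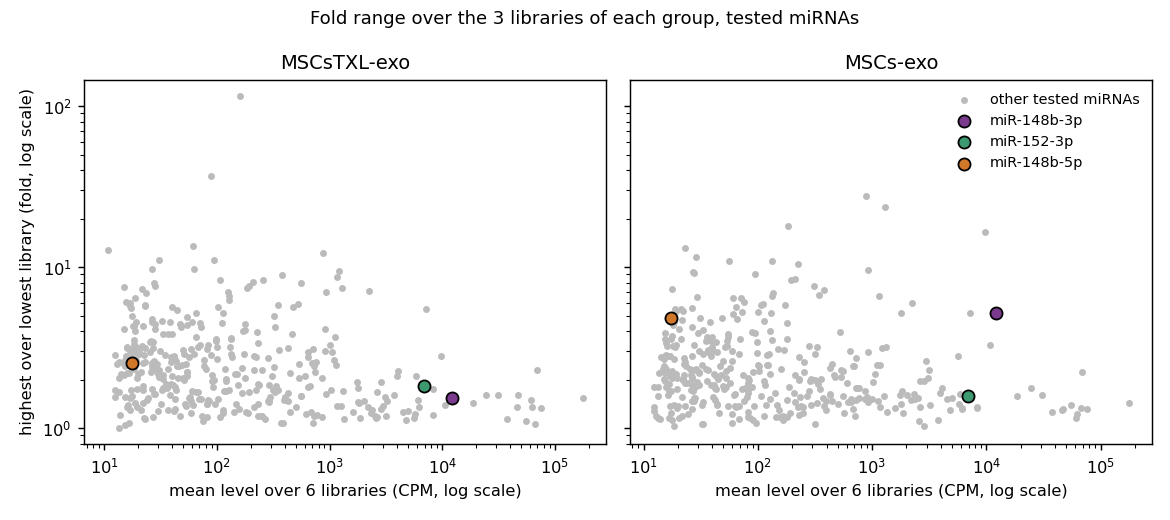
Highest over lowest library within each group (fold, log axis) against the mean level over 6 libraries (CPM, log axis) for the tested miRNAs, with 3 members of the pair of genes coloured. miR-148b-3p, picked for its differences between libraries, is at 1.53-fold in MSCsTXL-exo and 5.16-fold in MSCs-exo. For MSCs-exo, 2 miRNAs with a count of 0 in a library are not drawn.

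miR-152-3p, the guide arm of Mir152, did not pass the thresholds, which 1.79% of the tested miRNAs passed on the lower side. It had 1980, 5098 and 13846 UMIs in MSCsTXL-exo libraries 10, 12 and 13, against 2808, 5268 and 7938 UMIs in those of MSCs-exo. The levels were 4947, 6326 and 8983 CPM in MSCsTXL-exo and 5428, 7422 and 8593 CPM in MSCs-exo. In both groups library 10 was the lowest and library 13 the highest, and the groups overlapped. The means were 6752 ± 2051 CPM in MSCsTXL-exo and 7148 ± 1600 CPM in MSCs-exo (SD, n = 3 each). The log2 fold change of miR-152-3p was -0.082 (standard error 0.30, 95% interval -0.78 to 0.61), and adjusted p = 0.993 (edgeR, Benjamini-Hochberg over the 392 miRNAs). The interval therefore leaves room for a difference of either sign.

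The passenger arms were rare. miR-148b-5p had 4, 13 and 39 UMIs in MSCsTXL-exo libraries 10, 12 and 13, against 3, 14 and 26 UMIs in those of MSCs-exo, or 9.99, 16.1 and 25.3 CPM in MSCsTXL-exo and 5.80, 19.7 and 28.1 CPM in MSCs-exo. In both groups miR-148b-5p was lowest in library 10 and highest in library 13, as the library totals were. The part of depth in this was not tested. MSCs-exo library 10, which held the most miR-148b-3p, held the least miR-148b-5p. This rests on 3 UMIs against 4 in MSCsTXL-exo library 10, with counting errors of 57.7% and 50% of the count. The log2 fold change of miR-148b-5p was -0.038 (standard error 0.60, 95% interval -1.43 to 1.35), and adjusted p = 0.993 (edgeR, Benjamini-Hochberg). The interval reaches past a 2-fold difference in both directions, so a difference of that size is not excluded.

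miR-152-5p had 8, 22 and 13 UMIs in MSCsTXL-exo libraries 10, 12 and 13, against 5, 9 and 10 UMIs in those of MSCs-exo. Its mean was 18.6 ± 9.51 CPM in MSCsTXL-exo and 11.1 ± 1.52 CPM in MSCs-exo (SD, n = 3 each), and MSCsTXL-exo library 13, at 8.43 CPM, lay below all MSCs-exo libraries (9.67 to 12.7 CPM). The groups overlapped and, being under the filter, miR-152-5p was not tested in the reported comparison. None of the 4 miRNAs (0 of 4) had groups that did not overlap, which 7.40% of the tested miRNAs had. At a Benjamini-Hochberg adjusted p under 0.05, edgeR called 0 of the 392 miRNAs (0%), DESeq2 and limma-voom also called 0, and 14 had an unadjusted p under that value in edgeR. With the replicate block, 29 miRNAs passed the fold and unadjusted p thresholds instead of 14, and 1, not one of the 4, had an adjusted p under 0.05.

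The ratio of the arms of Mir148b differed between libraries. miR-148b-3p outnumbered miR-148b-5p by 494, 468 and 220 to 1 in MSCsTXL-exo libraries 10, 12 and 13, against by 5626, 799 and 225 to 1 in those of MSCs-exo. Such ratios within a library do not depend on the scaling between libraries. The 5p arm made up 0.202, 0.213 and 0.453% of the hairpin's UMIs in MSCsTXL-exo and 0.0178, 0.125 and 0.443% in MSCs-exo. The exact (Clopper-Pearson) 95% interval in MSCs-exo library 10 was 0.00367 to 0.0519%, which lies under the intervals of the other 5 libraries, the nearest of which was 0.0551 to 0.517% in MSCsTXL-exo library 10. These intervals cover counting error only. The shares and ratios of Mir148b hold the values miR-148b-3p was picked for, so they and their intervals are a description. In MSCs-exo library 10 the guide arm was high while its passenger arm had 3 UMIs.

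For Mir152 the ratio of miR-152-3p to miR-152-5p was 247.5, 232 and 1065 to 1 in MSCsTXL-exo libraries 10, 12 and 13, against 562, 585 and 794 to 1 in those of MSCs-exo. Here the 5p share was 0.402, 0.430 and 0.0938% in MSCsTXL-exo and 0.178, 0.171 and 0.126% in MSCs-exo. The exact intervals of the 3 MSCs-exo libraries overlapped, and MSCsTXL-exo library 13 had the lowest 5p share of the 6. The interval of that library ended at 0.160%, under those of MSCsTXL-exo libraries 10 and 12, which began at 0.174% and 0.269%. It overlapped the intervals of the 3 MSCs-exo libraries. These shares rest on 5 to 22 UMIs of miR-152-5p per library, and the intervals again cover counting error only. Libraries of 1 group differed far beyond counting error, so the intervals cannot show whether the arms of Mir152 keep a fixed ratio.

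**Figure D3:**
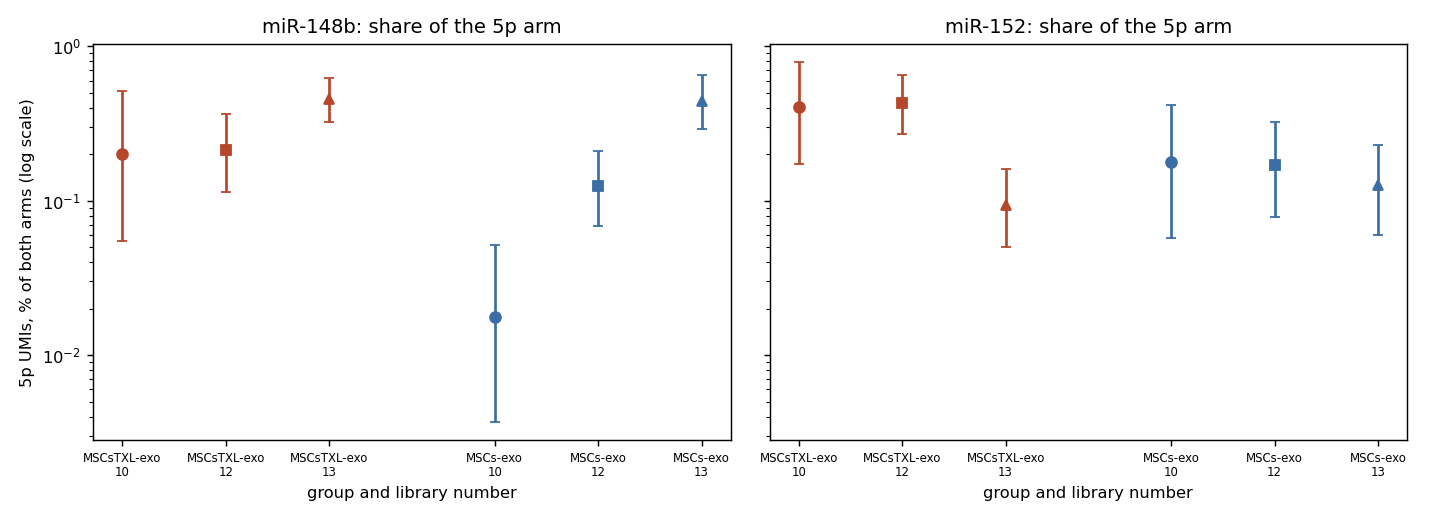
Share of the 5p arm in the UMIs of both arms (percent, log axis) for the Mir148b and Mir152 hairpins in each library. Points are libraries and bars are exact 95% intervals for counting error. MSCs-exo library 10, at 0.0178%, stands below the other 5 libraries for miR-148b and not for miR-152. The miR-148b shares hold the values miR-148b-3p was picked for.

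The balance of the 2 guide arms differed between libraries. miR-148b-3p had 0.997, 1.19 and 0.618 times the UMIs of miR-152-3p in MSCsTXL-exo libraries 10, 12 and 13, against 6.01, 2.12 and 0.736 times in those of MSCs-exo. The mean log2 ratio was -0.15 in MSCsTXL-exo and 1.08 in MSCs-exo. miR-148b-3p was the more counted of the 2 guide arms in 3 of the 6 libraries. These ratios hold the values miR-148b-3p was picked for and are a description.

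miR-148a-3p, the other miRNA with this seed, had 5137, 6532 and 7650 CPM in MSCsTXL-exo libraries 10, 12 and 13, against 5098, 5515 and 6742 CPM in those of MSCs-exo. Like miR-152-3p, it was not raised in MSCs-exo library 10, with a log2 fold change of 0.15 (standard error 0.25, adjusted p = 0.993 by edgeR with Benjamini-Hochberg adjustment). The 3 miRNAs together held 1.57, 2.07 and 1.91% of the UMIs in MSCsTXL-exo libraries 10, 12 and 13, against 4.92, 2.95 and 2.0% in those of MSCs-exo. miR-148b-3p made up 32.9, 37.0 and 25.0% of this sum in MSCsTXL-exo and 75.6, 54.9 and 29.2% in MSCs-exo. In MSCsTXL-exo each of the 3 miRNAs thus took between 25.0 and 40.5% of the sum. Without miR-148b-3p, the other 2 summed to 10085, 12858 and 16633 CPM in MSCsTXL-exo and 10526, 12937 and 15335 CPM in MSCs-exo, and the groups overlapped in this sum.

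**Figure D4:**
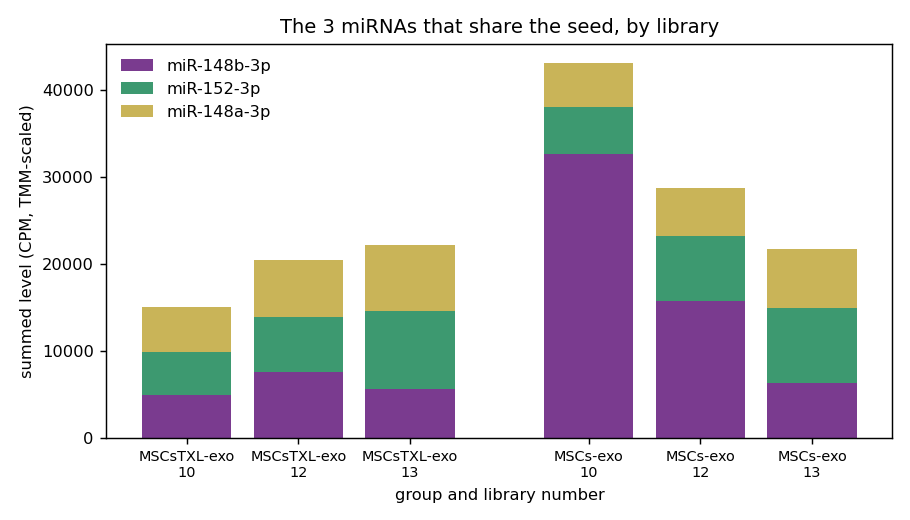
Summed level (CPM, TMM-scaled, linear axis from 0) of miR-148b-3p, miR-152-3p and miR-148a-3p, which share the seed, stacked for each library of MSCsTXL-exo and MSCs-exo. miR-148b-3p takes 75.6% of the bar of MSCs-exo library 10 and 25.0 to 37.0% in MSCsTXL-exo, while the other 2 parts together reach 10085 to 16633 CPM in MSCsTXL-exo and 10526 to 15335 CPM in MSCs-exo.

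Over the 6 libraries the 5 miRNAs most like miR-148b-3p, by Pearson's r of log2(CPM + 1), were miR-433-5p (r = 0.96), miR-3068-3p (0.93), miR-382-5p (0.89), miR-346 (0.88) and miR-3075 (0.88). miR-433-5p, for example, had 1054, 1281 and 722 CPM in MSCsTXL-exo libraries 10, 12 and 13, against 4197, 2699 and 805 CPM in those of MSCs-exo. Each of the 5 was highest in MSCs-exo library 10. Those most like miR-152-3p were miR-26b-5p (0.99), miR-16-3p (0.98), miR-15b-3p (0.97), miR-872-5p (0.97) and miR-16-5p (0.96). miR-26b-5p had 2646, 3554 and 6021 CPM in MSCsTXL-exo and 2908, 4103 and 5126 CPM in MSCs-exo. All 5 had library 10 lowest and library 13 highest in both groups, as the library totals had, so depth moved with this pattern and its part was not tested. The 6 libraries are shared by all of these values, and the correlations are given as a description.

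The list of miRNAs known in human or mouse cells to repress DNA methyltransferase mRNAs left out miR-148a-3p, though it is of the same family. It held 7 besides miR-148b-3p, all tested. Of these 7, 0 passed both thresholds in either direction, against 3.57% of all tested miRNAs, with 5 positive and 2 negative log2 fold changes and a median of 0.19, against 0.028 over all tested miRNAs. miR-29a-3p, which represses DNMT3A and DNMT3B, had 30734, 19153 and 29698 CPM in MSCsTXL-exo libraries 10, 12 and 13, against 20950, 17144 and 30324 CPM in those of MSCs-exo (log2 fold change 0.22, standard error 0.29). miR-342-3p and miR-185-5p, which repress DNMT1, had log2 fold changes of 0.19 (standard error 0.30) and 0.24 (standard error 0.32). miR-143-3p, which represses DNMT3A, had -0.19 (standard error 0.21).

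**Figure D5:**
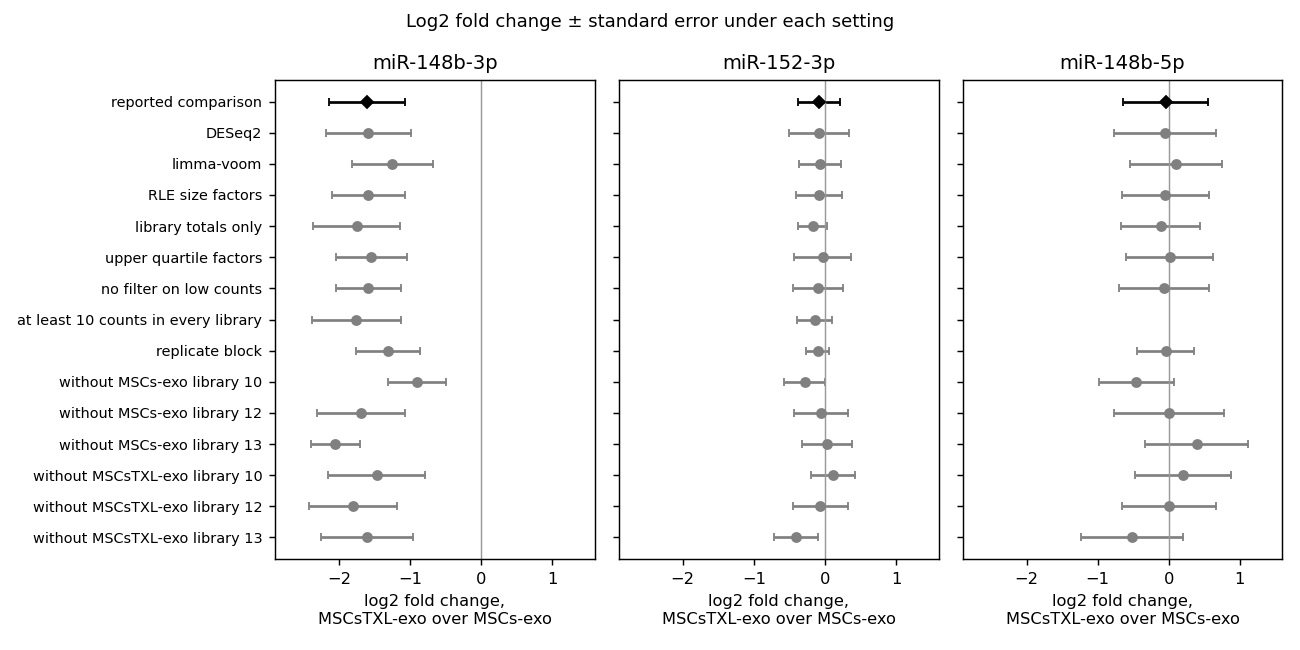
Log2 fold change (MSCsTXL-exo over MSCs-exo) of miR-148b-3p, miR-152-3p and miR-148b-5p in the reported comparison (black) and under each other setting (grey), with bars of 1 standard error. miR-148b-3p, picked for its difference between these same libraries, is below 0 in all 14 alternatives, from -2.05 to -0.90. The values of miR-152-3p and miR-148b-5p lie on either side of 0. miR-148b-5p has no value where at least 10 counts were asked of every library.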

How the data were processed

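Exosomal RNA of 3 MSCsTXL-exo and 3 MSCs-exo libraries was made into libraries with the QIAseq miRNA Library Kit. Per the labels, the processing notes name cutadapt 2.7 and Bowtie 1.2.2, and the authors deposited UMI counts per mature miRNA. Alignment settings and genome build are not given in the sources used here. The table has 833 lines for 749 miRNAs, because 69 with several loci have a line per locus with the same counts, and each was used once. Another 6 per-sample columns, which hold CPM, were left out. The column letters M and T were read as MSCs-exo and MSCsTXL-exo.

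All miRNAs were fitted together in R 4.3.3 by the quasi-likelihood test of edgeR 4.0.16, with group as the only term, after filterByExpr (minimum count 10, minimum total 15) and TMM scaling (factors 0.861 to 1.14). The standard error is the log2 fold change divided by the root of F. Ratios used 0.5 UMI added to each count for their log2 value only, and that of the guide arms is given without a test, since it holds the values by which miR-148b-3p was picked. Libraries of 1 group differed far beyond counting error (chi-square over its degrees of freedom 53.5 to 198). Deviations from the group means correlated at 0.431, 0.166 and 0.692 between libraries numbered 10, 12 and 13, and at -0.660 to 0.344 between unlike numbers, the highest of these for number 12 of MSCsTXL-exo and number 10 of MSCs-exo, above the value within number 12. The number, taken from the column names, was used as a replicate block in an alternative. DESeq2 1.42.0, limma-voom (limma 3.58.1), other scalings and filters and each library left out were the others. The miRNAs named are the 4 members, the 5 most like each guide arm, and the listed methyltransferase and cell type miRNAs. miR-148a was added after the table was seen. Members and lists were chosen with earlier results of these data known.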

Additional observations from a re-analysis of the deposited data

How the results depend on the processing

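All 14 alternatives reuse the libraries miR-148b-3p was picked on, so its sign in them is a description. The log2 fold change of miR-148b-3p stayed negative in all 14, at -1.75 with library totals only, -1.25 with limma-voom, -1.31 with the replicate block and -2.05 to -0.90 with 1 library left out. That of miR-152-3p was -0.40 to 0.11 with 1 library left out, positive without MSCs-exo library 13 (0.030) or MSCsTXL-exo library 10 (0.11). That of miR-148b-5p turned positive with limma-voom (0.10) and upper quartile factors (0.015) and was -0.52 to 0.40 with 1 library left out, and miR-152-5p had 0.66 without the filter and 0.59 to 1.03 with 1 library left out and the filter. None of these 3 passed both thresholds in any setting, and the cause of the sign changes was not tested. The replicate block changed the call of neither miR-152-3p nor miR-148b-5p. Leaving out 1 library, the log2 ratio of miR-148b-3p to miR-152-3p (mean over the libraries, 0.46 with all 6) was 0.040 (without MSCs-exo library 10) to 0.70. The mean log2 ratios of the 3p to the 5p arm were then 8.55 to 9.44 (miR-148b) and 8.67 to 9.11 (miR-152). The count of 14 miRNAs past both thresholds became 24 with DESeq2, 9 with limma-voom, 34 without the filter, 6 with at least 10 counts in every library, 29 with the replicate block, and 6 to 38 with 1 library left out (6 without MSCs-exo library 10 or 12, 38 without MSCs-exo library 13, 25 without MSCsTXL-exo library 13). The count at an adjusted p under 0.05 was 1 with the block. The few UMIs of the 5p arms limit their folds.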

Other observations

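MSCs-exo library 10 lay over 2-fold above each of the other 5 libraries for 28 of the 392 tested miRNAs (7.14%), and 3 of these had a mean level over 1000 CPM. They were miR-1188-5p, 5.16-fold above the next library, miR-3473 (3.57-fold) and miR-148b-3p (2.07-fold), a search made after the values were seen. The count was made for MSCs-exo library 10 only, so whether 7.14% is unusual for a library is not known. miR-148a-5p, the passenger arm of Mir148a, had 312, 114 and 182 CPM in MSCsTXL-exo libraries 10, 12 and 13, against 622, 268 and 194 CPM in those of MSCs-exo, so it too was highest in MSCs-exo library 10, where its guide arm was not. Its 5p share of the hairpin was 5.73, 1.72 and 2.33% in MSCsTXL-exo libraries 10, 12 and 13, against 10.9, 4.63 and 2.79% in those of MSCs-exo, above that of miR-148b and miR-152 in each library.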
